A study of Homo sapiens with 12 samples.

Results

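ATF4 and 9 genes that act with it in the integrated stress response and the unfolded protein response were followed through a METTL1 knockdown in LNCaP-AI cells. LNCaP-AI is an androgen-independent derivative of the prostate line LNCaP, used as a model of castration-resistant prostate cancer, and all cells here were grown under androgen deprivation. Cells stably carried a lentiviral hairpin against METTL1 (shMETTL1) or a scrambled one (shscramble). Internal m7G of RNA was read by AlkAniline-Seq in 3 shMETTL1 and 3 shscramble replicates, each with an input library, which gives 12 libraries. The 10 genes were taken by their Ensembl IDs: ATF4 (ENSG00000128272), DDIT3 (ENSG00000175197), TRIB3 (ENSG00000101255), CHAC1 (ENSG00000128965), ATF3 (ENSG00000162772), ATF5 (ENSG00000169136), CEBPB (ENSG00000172216), DDIT4 (ENSG00000168209), XBP1 (ENSG00000100219) and HERPUD1 (ENSG00000051108). They are 10 of 18569 gene IDs and hold 1273 of 842183 positions. The knockdown itself and the identity of the cell line were not checked, since the symbols of METTL1 and of prostate marker genes were not tied to the IDs of the files here.

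METTL1, with its partner WDR4, is the methyltransferase that places m7G on tRNAs and inside other RNAs. In AlkAniline-Seq the methylated base is opened by alkali and the strand is cut there with aniline, so that reads pile up at modified positions. The integrated stress response starts with kinases that phosphorylate the initiation factor eIF2alpha. General translation then falls while ATF4 mRNA is translated, and ATF4 turns on genes of amino acid supply, redox balance and, under lasting stress, cell death. The unfolded protein response of the endoplasmic reticulum feeds into the same network through PERK, and runs beside it through IRE1, which splices XBP1 mRNA, and through ATF6.

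The promoters of these genes were searched for known elements of both pathways. The matches are shown because they tell which of the genes carry the exact letters of one near a start site. Elements farther away or with other letters were not looked for. RefSeq (GRCh38.p14) gave 19 start sites for the 10 genes, each with 250 bases before and 50 after the start. The C/EBP-ATF composite element, TGATGNAA, through which ATF4 and its partners bind, was searched on both strands. It was found in 3 of the 19 member promoters, those of ATF3, CHAC1 and HERPUD1, and in 3.62% of all 35116 promoters. The ER stress response element, CCAAT and CCACG with 9 bases of any kind between them, was found at 1 start site, that of XBP1, and in 0.0769% of all promoters. The unfolded protein response element, TGACGTGG, was found in 0 of the 19 and in 0.729% of all. The 4 matches are given 5′ to 3′ along the gene's own strand, 30 bases each, with the element in capitals. In CHAC1 and HERPUD1 it is the reverse complement that is read on the gene's strand. The windows lie at chr1:212565205-212565234 (ATF3, plus strand), chr15:40953251-40953280 (CHAC1, plus strand), chr16:56931955-56931984 (HERPUD1, plus strand) and chr22:28800597-28800626 (XBP1, minus strand), and the first base of the element was at -191, -209, -176 and -52 from the start site in that order.
ATF3: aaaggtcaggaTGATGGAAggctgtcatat
CHAC1: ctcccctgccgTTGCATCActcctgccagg
HERPUD1: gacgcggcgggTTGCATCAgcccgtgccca
XBP1: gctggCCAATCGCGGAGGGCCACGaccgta
The CHAC1 and HERPUD1 elements share all of their 8 letters, while that of ATF3 differs at the unspecified base. A match of letters is a description of the window and was not tied to binding.

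The AlkAniline-Seq libraries held 2474464 to 2764417 reads in shMETTL1 and 1421551 to 2624431 in shscramble. The input libraries held 2783709 to 3258499 reads in shMETTL1 and 3045523 to 3152800 in shscramble. Among the AlkAniline-Seq libraries shscramble replicate 1 stood apart. Of the positions with at least 50 reads in shscramble replicates 2 and 3, 99.9% and 100% also had a read in shscramble replicate 1, against 31.1% to 63.4% for every other pair of AlkAniline-Seq libraries. Over positions of the 10 genes this was 100% against 33.3% to 80%. Among the input libraries, shMETTL1 replicate 1 had reads at 311979 positions and shscramble replicate 2 at 72098, against 153839 to 165105 in the other 4. Fold changes without each of these 3 libraries follow the account of the genes.

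Together the 10 genes took a larger share of reads in shMETTL1 cells. Of all AlkAniline-Seq reads, 0.340%, 0.219% and 0.301% fell on them in shMETTL1 and 0.194%, 0.158% and 0.200% in shscramble. In the input the shares were 0.328%, 0.332% and 0.323% in shMETTL1 and 0.188%, 0.175% and 0.193% in shscramble. The groups did not overlap in either assay. The 10 genes were chosen with earlier results of these data known, so this separation and the counts that follow are a description. A few genes carry most of the share. In shMETTL1 AlkAniline-Seq replicate 1, ATF4, DDIT4 and HERPUD1 held 2453, 2448 and 1295 of the 8547 reads. More cells that carry these RNAs and more of the RNA per cell cannot be told apart in bulk RNA.

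**Figure D1:**
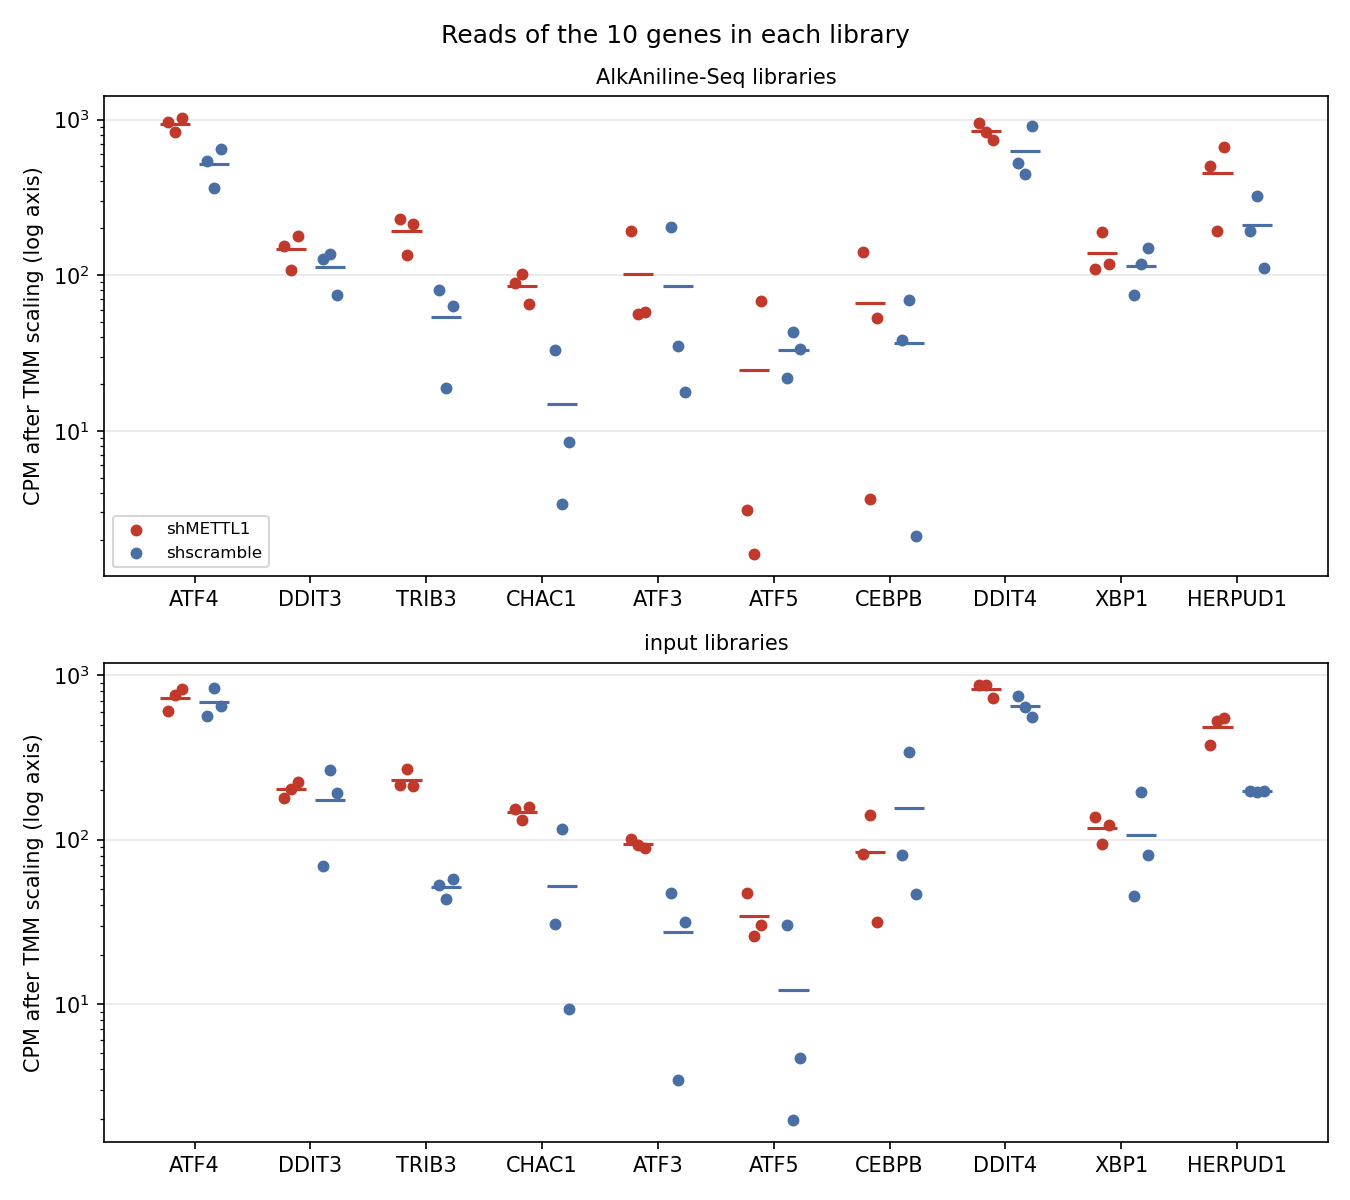
Reads of each gene as CPM (reads scaled to a common library size) after TMM scaling, on a log axis, in the AlkAniline-Seq libraries (top) and the input libraries (bottom). Each point is 1 library (shMETTL1 red, shscramble blue) and each line the mean of 3. TRIB3 and CHAC1 are separated by group in both panels, ATF4 in the top panel only, ATF3 and HERPUD1 in the bottom panel only.

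Gene by gene, the AlkAniline-Seq reads of ATF4, TRIB3 and CHAC1 were higher in all 3 shMETTL1 libraries than in any shscramble library. That is 3 of 10, where 7.1% of all 11097 genes tested lay apart in this direction, and 0 of 10 lay apart in the other direction (7.38% of all genes). In the input TRIB3, CHAC1, ATF3 and HERPUD1 lay apart upwards, 4 of 10 against 7.64% of 11740 genes, and 0 of 10 downwards (5.84%). None of the 10 had an adjusted p under the threshold of 0.05 in edgeR's quasi-likelihood test in either assay. At that threshold 1 gene of 11097 was called in AlkAniline-Seq, lower in shMETTL1 (0.00901% of genes), and 0 of 11740 in the input. At an unadjusted p under 0.05, 4 of the 10 were higher in AlkAniline-Seq (3.84% of all genes) and 2 in the input (1.64% of all genes), and 0 were lower in either (3.14% and 4.62% of all genes). With DESeq2 444 genes passed in AlkAniline-Seq (1.14% of genes higher, 1.46% lower) and 52 in the input (0.136% higher, 0.159% lower), with 0 of the 10 in either. The labels do not say whether replicates were separate cultures, so these p-values measure the spread between libraries, which may be technical.

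ATF4, the bZIP factor at the centre of the response, had 957, 835 and 1018 CPM in the shMETTL1 AlkAniline-Seq libraries, against 543, 362 and 647 CPM in shscramble. CPM are reads scaled to a common library size, after TMM scaling, here and for the genes that follow, with the replicates in order. All shMETTL1 values lay above all shscramble values, with means of 937 ± 93.5 and 517 ± 144 CPM (SD, n = 3 each). The log2 fold change, shMETTL1 over shscramble, was 0.86 ± 0.29 (SE; edgeR adjusted p = 0.534), and 0.88 without shscramble replicate 1. In the input ATF4 had 605, 759 and 821 CPM in shMETTL1 and 569, 842 and 651 CPM in shscramble. Here the groups overlapped, with a log2 fold change of 0.08 ± 0.31 (edgeR adjusted p = 0.981). One position carried 26.7% of the gene's input reads. With the highest position of every gene left out and the libraries rescaled the value was -0.84, and with DESeq2 it was -0.19.

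DDIT3 encodes CHOP, a bZIP partner of ATF4 tied to stress-induced cell death. It had 154, 108 and 179 CPM in the shMETTL1 AlkAniline-Seq libraries and 128, 137 and 74.5 CPM in shscramble. In the input it had 179, 203 and 225 CPM in shMETTL1 and 68.7, 266 and 192 CPM in shscramble. The groups overlapped in both assays, and the log2 fold changes were 0.38 ± 0.53 in AlkAniline-Seq and 0.21 ± 0.49 in the input (edgeR adjusted p = 0.960 and 0.976). The input shMETTL1 libraries lay within a narrow band, between a low shscramble replicate 1 and a high replicate 2.

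ATF3, a stress-induced bZIP factor that is mostly a repressor, had overlapping groups in AlkAniline-Seq and separate ones in the input. In AlkAniline-Seq 1 library in each group was high, with 191, 56.4 and 57.7 CPM in shMETTL1 and 205, 34.9 and 17.7 CPM in shscramble. The log2 fold change was 0.25 ± 0.84 (edgeR adjusted p = 0.987), and it was 1.94 without shscramble replicate 1, the high control library. In the input ATF3 had 102, 92.9 and 88.9 CPM in shMETTL1 and 47.5, 3.44 and 31.5 CPM in shscramble. All shMETTL1 input libraries lay above all shscramble ones, with a log2 fold change of 1.78 ± 0.86 (edgeR adjusted p = 0.766). The AlkAniline-Seq over input difference of ATF3 between the groups was -1.43 ± 1.27 (edgeR adjusted p = 0.799), and -0.46 without shscramble replicate 1.

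ATF5, a bZIP factor whose translation, like that of ATF4, is controlled by upstream open reading frames, was sparse. Its reads numbered 8, 4 and 161 in the shMETTL1 AlkAniline-Seq libraries and 40, 116 and 47 in shscramble, which is 3.12, 1.62 and 68.8 CPM against 22, 43.5 and 33.4 CPM. One shMETTL1 library held nearly all of that group's reads, and the log2 fold change was -0.43 ± 1.42 (edgeR adjusted p = 0.987). In the input it had 47.3, 26.1 and 30.1 CPM in shMETTL1 and 30.1, 1.97 and 4.67 CPM in shscramble, with a log2 fold change of 1.48 ± 1.18 (edgeR adjusted p = 0.876), which was 3.32 without shscramble replicate 1 and 0.99 without shscramble replicate 2. ATF5 was the only one of the 10 with a negative AlkAniline-Seq fold change.

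CEBPB, a C/EBP factor that pairs with ATF4 on composite elements, scattered as widely. It had 142, 3.65 and 53.0 CPM in the shMETTL1 AlkAniline-Seq libraries and 38.5, 69.4 and 2.13 CPM in shscramble (log2 fold change 0.84 ± 1.23, edgeR adjusted p = 0.965). In the input it had 81.3, 141 and 31.4 CPM in shMETTL1 and 80.1, 343 and 46.7 CPM in shscramble (log2 fold change -0.89 ± 0.72, edgeR adjusted p = 0.877). It was the only one of the 10 below 0 in the input, and the sign hung on shscramble replicate 2. In that library 456 of its 698 input reads stood at 1 position, and without the replicate the log2 fold change was 0.41.

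XBP1, the factor made by IRE1 splicing, had 110, 190 and 118 CPM in the shMETTL1 AlkAniline-Seq libraries and 74.2, 119 and 149 CPM in shscramble. In the input it had 138, 93.8 and 123 CPM in shMETTL1 and 45.6, 195 and 81.0 CPM in shscramble. The groups overlapped in both, with log2 fold changes of 0.29 ± 0.54 in AlkAniline-Seq and 0.14 ± 0.59 in the input (edgeR adjusted p = 0.974 and 0.985). In shscramble replicate 2, 385 of 397 input reads of XBP1 stood at 1 position. These counts do not separate spliced from unspliced XBP1.

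Among the target genes, TRIB3 stood out. It encodes a pseudokinase that is induced by ATF4 and CHOP and in turn restrains ATF4. In the input TRIB3 had 215, 267 and 213 CPM in shMETTL1, against 52.9, 43.7 and 57.6 CPM in shscramble. The groups were far apart, at 232 ± 30.6 and 51.4 ± 7.06 CPM (SD, n = 3 each). The log2 fold change of 2.17 ± 0.48 (edgeR adjusted p = 0.747) ranked 4 of 11740 genes by p. It was 2.05 to 2.25 on leaving out each library in turn, and 1.68 ± 0.71 with the highest position of every gene left out. Counting positions with a read in place of reads, TRIB3 had 100, 41 and 40 input positions in shMETTL1 and 24, 13 and 19 in shscramble. The highest and the lowest of these counts came from the input libraries with the most and the fewest positions read. As a share of all positions read in the library they were 321, 267 and 242 ppm in shMETTL1 and 151, 180 and 123 ppm in shscramble, and the groups did not overlap. In edgeR's test of the position counts TRIB3 was the 1 gene of the 10 to pass, where 0.0713% of 5608 genes were called higher and 0.0535% lower. Its log2 fold change was 0.97 ± 0.19 (edgeR adjusted p = 0.00972), and the call was lost without shMETTL1 replicate 1 (0.80, edgeR adjusted p = 0.381) and without shscramble replicate 3 (0.82, edgeR adjusted p = 0.271). In AlkAniline-Seq TRIB3 had 229, 134 and 214 CPM in shMETTL1 and 80.3, 18.8 and 63.2 CPM in shscramble, a log2 fold change of 1.83 ± 0.62 (edgeR adjusted p = 0.534). It was 2.23 without shscramble replicate 1.

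CHAC1, an enzyme that breaks down glutathione and a target of ATF4, had 89.0, 101 and 65.8 CPM in the shMETTL1 AlkAniline-Seq libraries and 33.0, 3.38 and 8.52 CPM in shscramble. Its log2 fold change of 2.51 ± 1.06 was the largest of the 10 (edgeR adjusted p = 0.677). The shscramble reads were few, at 60, 9 and 12, against 228, 250 and 154 in shMETTL1, and without shscramble replicate 1 the log2 fold change was 3.84. In the input it had 153, 132 and 158 CPM in shMETTL1 and 30.7, 116 and 9.34 CPM in shscramble, with a log2 fold change of 1.5 ± 0.74 (edgeR adjusted p = 0.766). The groups did not overlap, though shscramble replicate 2 came close to the shMETTL1 libraries. The input value was 2.88 without shscramble replicate 2, 0.98 without shscramble replicate 3, and 0.02 with the highest position of every gene left out.

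DDIT4 encodes REDD1, a stress-induced brake on mTOR signalling. Its AlkAniline-Seq values were 955, 836 and 740 CPM in shMETTL1 and 526, 446 and 910 CPM in shscramble, overlapping because of shscramble replicate 3. In the input it had 874, 879 and 733 CPM in shMETTL1 and 751, 644 and 561 CPM in shscramble, overlapping slightly. The log2 fold changes were 0.43 ± 0.31 in AlkAniline-Seq and 0.35 ± 0.30 in the input (edgeR adjusted p = 0.870 and 0.890).

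HERPUD1, a membrane protein of ER-associated degradation induced by both arms of the ER stress response, had 378, 527 and 546 CPM in the shMETTL1 input libraries and 198, 195 and 197 CPM in shscramble. All shscramble libraries lay below the shMETTL1 ones. The near identity of the shscramble values holds after TMM scaling only, since by library totals they were 447, 560 and 593 CPM in shMETTL1 and 198, 129 and 208 CPM in shscramble. The log2 fold change was 1.3 ± 0.36 (edgeR adjusted p = 0.747, rank 27 of 11740 by p) and 1.28 without shscramble replicate 1. The highest position carried 38.5% of the gene's input reads. With the highest position of every gene left out the value was 1.27 ± 0.69. In AlkAniline-Seq HERPUD1 had 505, 192 and 670 CPM in shMETTL1 and 193, 325 and 111 CPM in shscramble. There the groups overlapped through shMETTL1 replicate 2, with a log2 fold change of 1.12 ± 0.47 (edgeR adjusted p = 0.674).

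**Figure D2:**
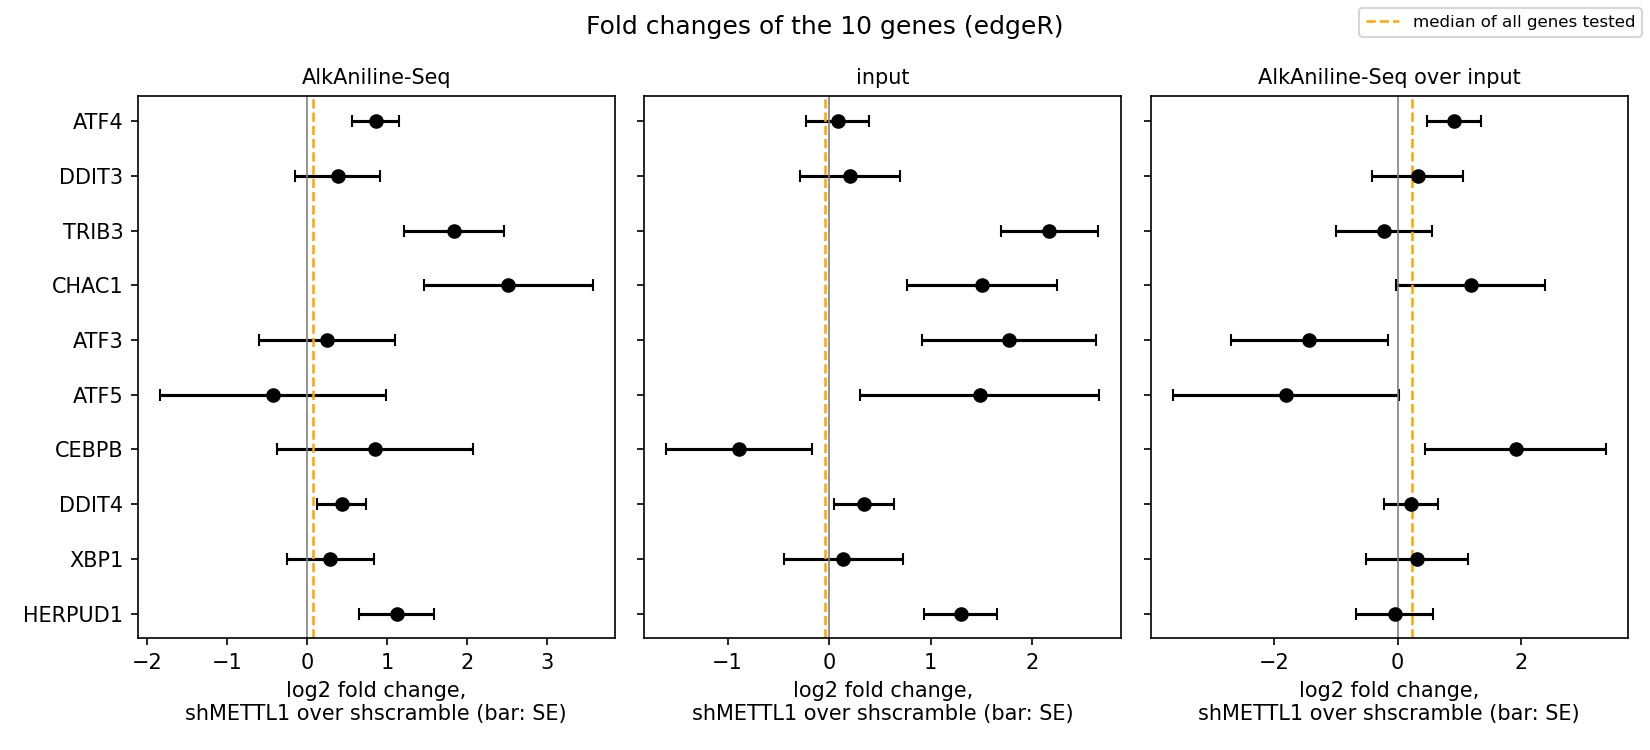
Log2 fold change of each gene, shMETTL1 over shscramble (points, with SE bars), for AlkAniline-Seq reads (left), input reads (middle) and AlkAniline-Seq over input (right). The dashed line is the median of all genes tested, at 0.07, -0.04 and 0.24 from left to right. Of the 10 genes 9 lay above 0 in each of the left and middle panels, and 6 in the right one.

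Over the 10 genes the median log2 fold change was 0.64 in AlkAniline-Seq and 0.82 in the input, beside 0.07 and -0.04 over all genes tested. In each assay 9 of the 10 were above 0. The exception was ATF5 in AlkAniline-Seq and CEBPB in the input. Scaled by library size alone, the median of all input genes moved to 0.22 and that of the 10 genes to 1.11, with 9 above 0 again. With DESeq2 6 of the 10 were above 0 in the input.

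Without shscramble replicate 1, the AlkAniline-Seq median of the 10 genes was 0.88 and that of all genes 0.10, with 9 of the 10 above 0. The values of ATF3 (1.94), CHAC1 (3.84) and TRIB3 (2.23) moved most. Those of ATF4 (0.88), DDIT3 (0.46), ATF5 (-0.66), CEBPB (0.87), DDIT4 (0.31), XBP1 (0.048) and HERPUD1 (1.06) moved less, and all 10 kept their sign. In the input, leaving out shscramble replicate 1 gave a median of 0.81 with 6 of the 10 above 0. Leaving out shscramble replicate 2, the input library with the fewest positions read, gave a median of 0.94 with 10 of 10 above 0. TRIB3 (2.07) and HERPUD1 (1.29) were close to their values over all libraries, and ATF4 (0.25), CHAC1 (2.88), CEBPB (0.41) and XBP1 (0.90) were higher. Leaving out shMETTL1 replicate 1, the input library with the most positions read, gave a median of 0.75 with 9 of 10 above 0, with TRIB3 at 2.22 and HERPUD1 at 1.44.

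The AlkAniline-Seq reads of a gene were then set against its input reads. Tested as an interaction over the 12 libraries, the median of the 10 genes was 0.27 on the log2 scale and that of all 12877 genes 0.24, with 6 of the 10 above 0. This fit did not pair each AlkAniline-Seq library with its own input, so its SE and p ignore that pairing. In the paired fit the medians were 0.098 and -0.23, again with 6 above 0. Scaled by library size alone, these were -0.37 and -0.28, with 3 above 0. The TRIB3 and HERPUD1 values were close to 0, at -0.22 ± 0.78 and -0.05 ± 0.63 (edgeR adjusted p = 0.969 and 0.993). For ATF4 the difference was 0.91 ± 0.44 (edgeR unadjusted p = 0.04999, adjusted p = 0.599). It was the only one of the 10 at an unadjusted p under 0.05, where 5.3% of all genes were higher at that p and 3.04% lower. Of all genes 1 was called, lower in shMETTL1 (0.00777%), and DESeq2 called 0.342% higher and 0.492% lower, with 0 of the 10 by either. The ATF4 difference was 0.50 without shscramble replicate 2 and 0.35 with library size alone. With DESeq2, library size alone or no filter, 0 of the 10 had an unadjusted p under 0.05. The same held without shMETTL1 replicate 1, shscramble replicate 1 or shscramble replicate 2. Under each of the other alternatives 1 of the 10 had one. The others ran between -1.81 ± 1.84 for ATF5 and 1.91 ± 1.46 for CEBPB. Leaving out 1 replicate moved ATF5 to between -5.20 (without shMETTL1 replicate 3) and -1.01 (without shMETTL1 replicate 1), and CEBPB to between 0.64 (without shMETTL1 replicate 1) and 3.08 (without shMETTL1 replicate 2).

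Within a group, AlkAniline-Seq was set against input in the same unpaired fit. It gave 27 called genes in shMETTL1 (0.0854% of genes higher, 0.124% lower) and 82 in shscramble (0.0932% higher, 0.544% lower), with 0 of the 10 in either. In shscramble CHAC1 and CEBPB were lower in AlkAniline-Seq than in the input, at -2.06 ± 0.89 and -2.36 ± 1.08 on the log2 scale (edgeR adjusted p = 0.322 and 0.353). These were 2 of 10 at an unadjusted p under 0.05, where 8.86% of all genes were lower and 4.32% higher. In shMETTL1 0 of the 10 reached that p (3.53% of all genes higher, 4.74% lower). By shscramble replicate, from CPM after TMM scaling of each assay, the log2 ratio of CHAC1 was 0.10, -5.11 and -0.13. The CHAC1 value thus rests on shscramble replicate 2, with 9 AlkAniline-Seq and 237 input reads. For CEBPB the ratios were -1.06, -2.31 and -4.46, with 3 AlkAniline-Seq reads in shscramble replicate 3.

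The files also give the reads that cover each position, a measure less tied to single positions. Its use here was chosen after the values were seen. In the input, a gene's coverage in ppm of the library's coverage was higher in all shMETTL1 libraries than in any shscramble library for 9 of the 10 genes, all but DDIT3, where 12.1% of 12408 genes lay apart in this direction, and for 0 of 10 it was lower (3.24%). With libraries scaled by the median of ratios over genes it was 7 of 10, without CEBPB and HERPUD1, where 6.71% of genes lay apart, and 0 lower (8.18%). The median log2 ratio of means was 1.09 for the 10 genes and 0.22 for all genes in ppm, and 0.74 and -0.12 after that scaling.

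**Figure D3:**
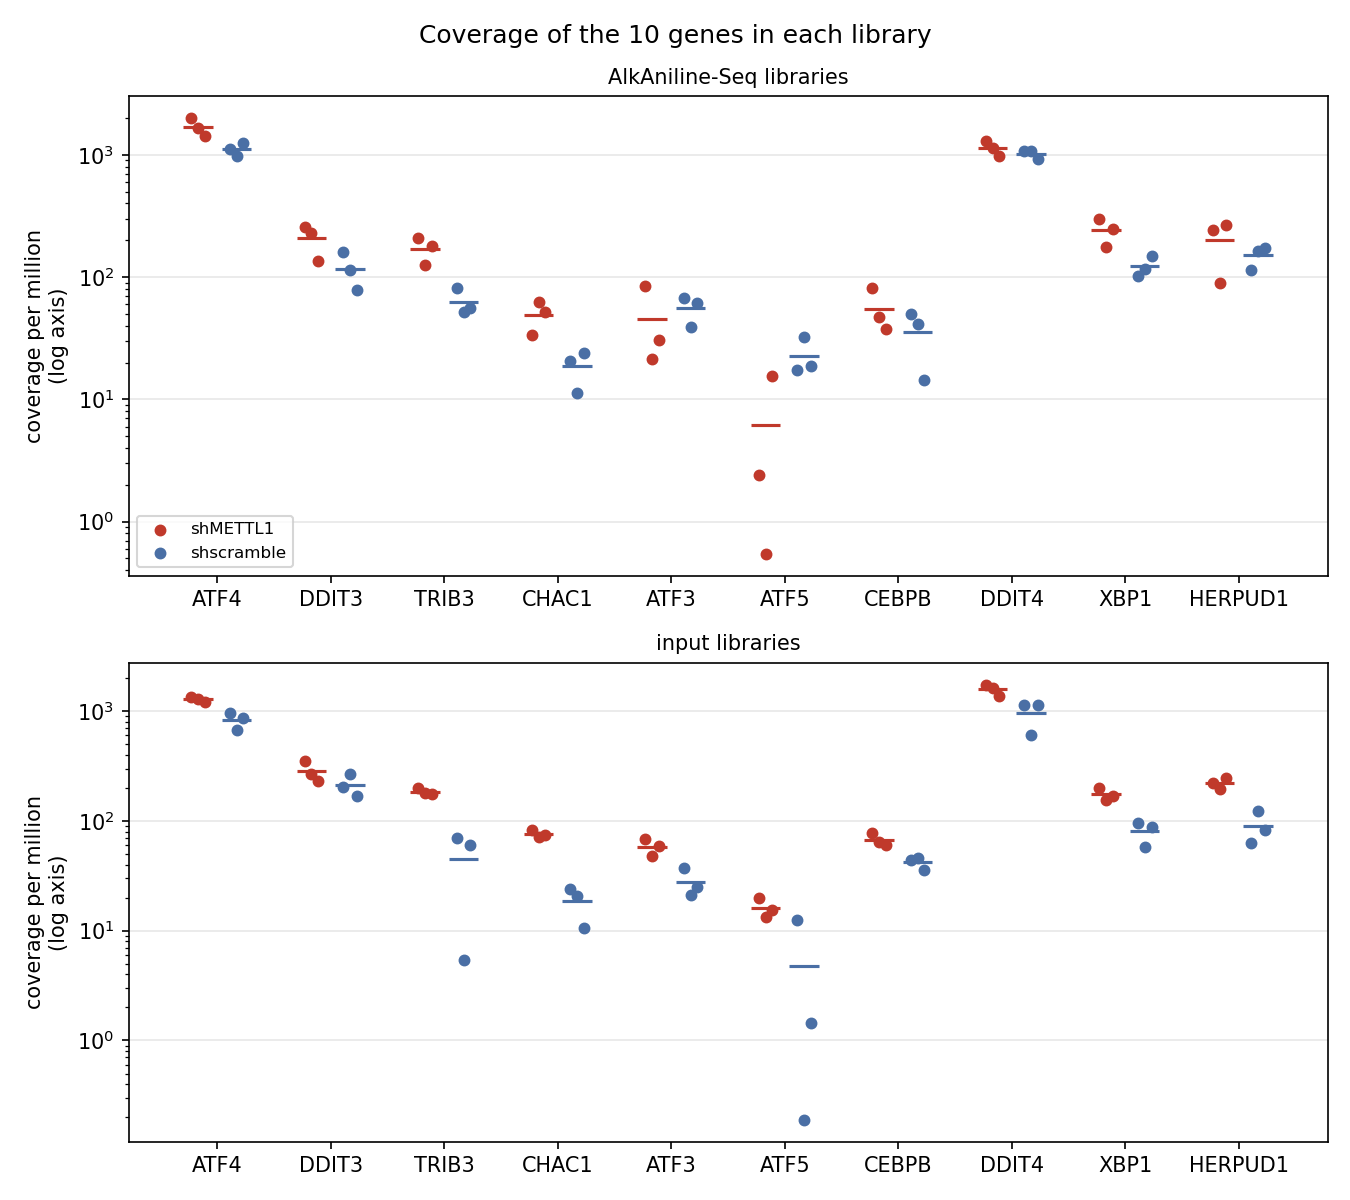
Coverage of each gene in ppm of the library's coverage, on a log axis, in the AlkAniline-Seq libraries (top) and the input libraries (bottom). Points are libraries (shMETTL1 red, shscramble blue) and lines are means of 3. In the input all genes but DDIT3 are separated by group, with shMETTL1 above.

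ATF4 had 1340, 1289 and 1215 ppm in the shMETTL1 input libraries and 961, 669 and 869 in shscramble. TRIB3 had 201, 178 and 176 in shMETTL1 and 69.9, 5.37 and 60.8 in shscramble. CHAC1 had 82.8, 71.2 and 74.0 in shMETTL1 and 24.1, 20.9 and 10.6 in shscramble. Both of these targets differed about as much by mean coverage, with ratios of means of 4.08 for TRIB3 and 4.10 for CHAC1. XBP1, whose input reads overlapped between groups, had 200, 154 and 169 in shMETTL1 and 96.0, 57.7 and 87.5 in shscramble. HERPUD1 had 220, 195 and 246 in shMETTL1 and 63.1, 124 and 81.9 in shscramble, and the ratios of means were 2.17 for XBP1 and 2.45 for HERPUD1. For the other genes that ratio ran from 1.32 for DDIT3 to 3.43 for ATF5, whose coverage in shscramble replicate 2 summed to only 9 over its positions.

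In AlkAniline-Seq coverage 4 of the 10 lay apart upwards, ATF4, TRIB3, CHAC1 and XBP1 (6.98% of 12020 genes). The same 4 lay apart after scaling by the median of ratios (8.58% of genes). ATF5 lay apart downwards (9.21% of genes), at 2.42, 0.545 and 15.5 ppm in shMETTL1 and 17.4, 32.2 and 18.9 in shscramble. After that scaling 0 of the 10 lay apart downwards (7.51%).

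Reads as a percent of coverage, each summed over the listed positions of a gene, did not separate the groups in AlkAniline-Seq for any of the 10 genes (5.31% of genes lay apart upwards and 6.81% downwards). For ATF4 it was 3.14%, 2.79% and 4.72% in shMETTL1 and 3.59%, 2.65% and 3.40% in shscramble. For TRIB3 it was 7.11%, 5.99% and 7.88% in shMETTL1 and 7.23%, 2.62% and 7.36% in shscramble. XBP1 had the largest difference downwards, at 3.84% ± 1.89 in shMETTL1 and 6.42% ± 0.958 in shscramble (SD, n = 3 each), with overlap. In the input ATF3 lay apart upwards, with 13.7%, 14.6% and 11.2% in shMETTL1 and 8.28%, 0.698% and 8.81% in shscramble, 1 of 10 against 7.14% of genes, and 0 lay apart downwards (3.43%).

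Single positions were far less repeatable than genes. Of the 1273 positions, 696 had a read in any AlkAniline-Seq library and 1077 in any input library. Of the 696, 51.4% were read in exactly 1 library and 3.74% in all 6, against 62.9% and 1.897% of all 404685 positions read. ATF4 held 15 of the 26 positions read in all 6, DDIT4 6, DDIT3 3 and HERPUD1 2. In shMETTL1 alone 271 of the 696 were read (38.9%, against 39.2% of all positions) and in shscramble alone 202 (29.0%, against 39.9% of all positions). The deepest position held between 7.58% (TRIB3) and 45.9% (CHAC1) of a gene's AlkAniline-Seq reads.

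**Figure D4:**
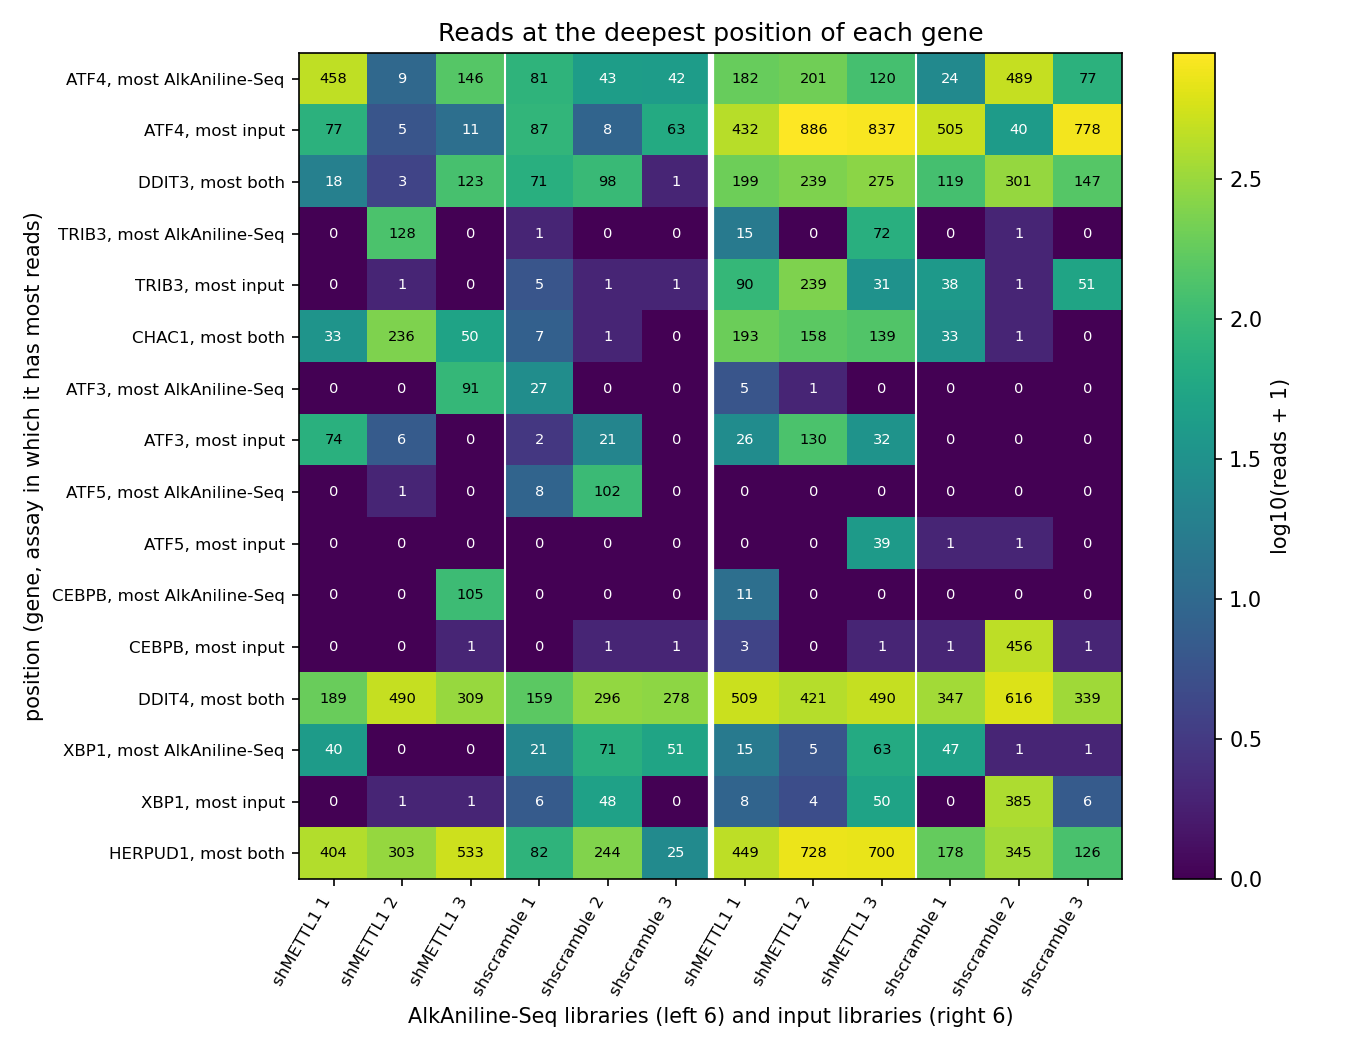
Reads at the deepest position of each gene, by AlkAniline-Seq reads and by input reads (1 row where they coincide), in the 6 AlkAniline-Seq libraries (left) and the 6 input libraries (right), shMETTL1 before shscramble in each. Colour is log10(reads + 1) and the number in a cell is the read count. HERPUD1, DDIT4 and DDIT3 have reads in every library, while the deepest TRIB3, ATF3, ATF5 and CEBPB positions by AlkAniline-Seq reads have nearly all of them in 1 or 2 libraries.

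HERPUD1, DDIT4 and DDIT3 each had 1 position that led in both assays and was read in all 12 libraries. At the HERPUD1 position there were 404, 303 and 533 AlkAniline-Seq reads in shMETTL1 and 82, 244 and 25 in shscramble. The input there held 449, 728 and 700 reads in shMETTL1 and 178, 345 and 126 in shscramble. Both assays separated the groups at this position by raw reads (edgeR log2 fold change 1.91 in AlkAniline-Seq, adjusted p = 0.460), but the deposited fold over input did not, at 0.93, 1.18 and 0.99 in shMETTL1 and 0.91, 0.765 and 1.16 in shscramble. Raw reads are not scaled for the depth of a library, and the share of all positions lying apart by them was not counted. At the DDIT4 position there were 189, 490 and 309 AlkAniline-Seq reads in shMETTL1 and 159, 296 and 278 in shscramble, and the fold over input was 1.06, 1.72 and 1.18 in shMETTL1 and 1.32, 0.675 and 2.0 in shscramble, overlapping widely. At the DDIT3 position there were 18, 3 and 123 AlkAniline-Seq reads in shMETTL1 and 71, 98 and 1 in shscramble. Its fold over input was higher in all shMETTL1 libraries, at 1.49, 1.23 and 1.21, than in the shscramble libraries, at 0.661, 0.990 and 0.806. AlkAniline-Seq coverage there was 19, 5 and 123 reads in shMETTL1 and 112, 99 and 2 in shscramble. The values 1.23 and 0.806 thus rest on coverage of 5 and 2 reads. The limma test on log2(fold + 1) gave an adjusted p of 0.714, and the share of all positions lying apart this way was not counted.

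CHAC1 also had 1 leading position in both assays. It held 33, 236 and 50 AlkAniline-Seq reads in shMETTL1 and 7, 1 and 0 in shscramble, and 193, 158 and 139 input reads in shMETTL1 and 33, 1 and 0 in shscramble. The groups lay apart in both assays by raw reads, and coverage of the position in the shscramble AlkAniline-Seq libraries was only 9, 2 and 3 reads. Here too the share of all positions lying apart was not counted. At the position of ATF4 with most AlkAniline-Seq reads there were 458, 9 and 146 in shMETTL1 and 81, 43 and 42 in shscramble, so that 1 shMETTL1 library lay below all controls. The position of ATF4 with most input reads had 432, 886 and 837 input reads in shMETTL1 and 505, 40 and 778 in shscramble.

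Per position, 45 of the 696 passed the edgeR filter and 0 were called, as 0 of all 13973 tested. At an unadjusted p under 0.05, 4 were higher (1.88% of all positions) and 1 was lower (6.32%). DESeq2 on the same positions called 713 in all, 4 of them in the 10 genes, of which 3 were higher (1.31% of positions) and 1 lower (3.98%). They were the leading CHAC1 position (DESeq2 adjusted p = 0.0218), 2 ATF4 positions and 1 DDIT4 position. The ATF4 positions had 145, 126 and 96 reads in shMETTL1 against 4, 25 and 2 in shscramble (DESeq2 adjusted p = 0.0221), and 35, 82 and 77 in shMETTL1 against 1, 0 and 0 in shscramble (DESeq2 adjusted p = 0.00596). The DDIT4 position had 1, 0 and 0 reads in shMETTL1 against 20, 103 and 52 in shscramble (DESeq2 adjusted p = 0.00855). With edgeR the adjusted p of the same 4 positions was 0.357 to 0.457. At the CHAC1, the DDIT4 and the second ATF4 position only libraries of 1 group held 10 or more reads. These passed the filter through the group where they were high and had to differ. At the first ATF4 position only 1 shscramble library held 10 or more reads, so it too passed through shMETTL1. All 4 are given as a description.

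The deposited fold over input was tested with limma on log2(fold + 1) at positions read in at least 3 libraries, 170 of the 10 genes and 62125 in all. There 6 member positions had an adjusted p under 0.05, 1 higher (0.628% of all positions) and 5 lower (4.23%). All 6 were read in all libraries of 1 group and in none of the other, so they passed the filter only through the group in which they were read, and their number is a description. The higher one, in HERPUD1, had 2, 1 and 101 reads in shMETTL1 and 0 in each shscramble library (limma adjusted p = 0.0491). Of the lower ones, the deepest had 0 reads in each shMETTL1 library and 6, 2 and 57 in shscramble, also in HERPUD1 (limma adjusted p = 0.0233), and another, in ATF3, had 5, 46 and 1 in shscramble (limma adjusted p = 0.0342). At both of these coverage was 0 in every shMETTL1 library. The other 3 were 2 positions of ATF4, with 2, 26 and 3 and with 2, 15 and 1 reads in shscramble, and 1 of XBP1, with 1, 2 and 8. At the 5 lower ones shscramble replicate 1 held 6, 5, 2, 2 and 1 reads, in the order given. That library had a read at 99.9% to 100% of the deep positions of shscramble replicates 2 and 3, against 31.1% to 63.4% for other pairs. The number of lower ones is to be read with this limit. The methods' t-test on the fold was run at the study's thresholds, an unadjusted p under 0.05 and a fold change over 1.5 in either direction. It picked 10 of the 696, 4 higher (0.203% of all positions read), the DDIT3 position among them, and 6 lower (1.05%). All 6 lower ones had 0 reads in each shMETTL1 library. Of the higher ones, those in CEBPB and HERPUD1 had 0 reads in each shscramble library, and that in ATF3 had 0, 1 and 0. The fold is 0 where a position has no read, so picks read in 1 group alone are a description.

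Genes that followed ATF4 across libraries were sought by Pearson's r of log2(CPM + 1) over the 12 libraries, after each assay's mean was subtracted, among 7245 IDs. The 12 points share libraries and depth, and r is given as a description. The means of the 2 groups were not subtracted, so r also holds the difference between shMETTL1 and shscramble. ATF4, TRIB3 and CHAC1 are the genes that lay apart upwards in AlkAniline-Seq reads, and their likeness partly restates that. The highest were ENSG00000175727 (r = 0.93) and ENSG00000163541 (r = 0.93), which are not named here. Of the other 9 genes, CHAC1 (r = 0.73, rank 153), TRIB3 (r = 0.69, rank 236) and DDIT4 (r = 0.68, rank 249) lay closest, while the median of all IDs was 0.017. DDIT3, XBP1 and HERPUD1 had r of 0.44, 0.41 and 0.39. CEBPB and ATF3 were near 0, at 0.08 and 0.01, and ATF5 ran opposite at -0.41.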

How the data were processed

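AlkAniline-Seq and input were measured in 3 shMETTL1 and 3 shscramble replicates. The authors deposited, per position and library, a count of reads and the coverage (signal), the fraction of one over the other, and the fold over input, a ratio. On the files, the fraction equals count over coverage, and the fold equals fraction over input fraction, or fraction plus 1 where the input has none. Per the labels, hg19 is the build named, and bedtools 2.24, Bowtie2 2.2.4 and cutadapt 1.9.1 are listed in the submitters' processing notes. The sources used here do not say what each did, how reads were filtered, how the input was made or which read end was counted. Files hold gene IDs without coordinates, and positions were matched between files by row. The 10 symbols came with the list of IDs. Of 18569 IDs, 0 could be tied to symbols of the reference table, so the pathway lists, METTL1, WDR4 and marker genes were not looked up.

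Counts were summed per ID and tested by edgeR's quasi-likelihood test (version 4.0.16, under R 4.3.3, with TMM factors, a filter with minimum count 10 and minimum total 15, and Benjamini-Hochberg over all genes or positions). Each SE is the fold change over the square root of F. Alternatives were DESeq2 1.42.0, library size alone, other filters, sums without each gene's highest position, positions with a read, the replicate block and leaving out each library. For AlkAniline-Seq against input the main fit took the libraries as unpaired groups, and the block there paired each library with its own input. The fold was tested with limma 3.58.1 (pseudocount 1, alternatively 0.1), with the methods' t-test as an alternative. Tables and plots used Python 3.11.15, numpy 2.4.6, pandas 2.3.3 and matplotlib 3.10.9. With 3 against 3 replicates an exact permutation test cannot go below 0.1. All 10 genes passed the filter on reads, and 7 of the 10 that on AlkAniline-Seq positions with a read. Named were all 10 genes, their deepest positions, positions with an adjusted p under 0.05, and the IDs most like ATF4. The members and lists were chosen with earlier results of these data known. On simulated AlkAniline-Seq counts of 11097 genes, 0 of 50 genes changed 2-fold, 8 of 48 changed 4-fold and 37 of 49 changed 16-fold were recovered. The coefficient of variation between replicates was 0.899 for AlkAniline-Seq genes, 0.806 for input genes and 1.42 for positions.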

Additional observations from a re-analysis of the deposited data

Results flagged for a closer look

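ATF4 had an AlkAniline-Seq over input ratio above 1 in all 3 shMETTL1 replicates and below 1 in all 3 shscramble replicates. From CPM after TMM scaling of each assay, the log2 ratio was 0.66, 0.14 and 0.31 in shMETTL1 and -0.07, -1.22 and -0.01 in shscramble. The shscramble values of -0.07 and -0.01 lay just under a ratio of 1, a point that depends on that scaling. The share of all genes that split this way was not counted, so the split is a description. The difference between the groups was 0.91 ± 0.44 on the log2 scale (edgeR interaction, libraries not paired with their inputs, adjusted p = 0.599, and 0.475 to 0.941 over the alternatives run). From CPM of library totals the log2 ratio was 0.45, -0.12 and 0.11 in shMETTL1 and 0.00, -0.60 and -0.10 in shscramble, and the split by sign was lost.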

How the results depend on the processing

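Called genes were few and their number moved with the tool. For AlkAniline-Seq reads 1 gene passed, against 444 with DESeq2, 2 with library size alone, 19 with no filter, 2 with a minimum count of 50, 0 without each gene's highest position, 5 by positions with a read, and 0 to 3 on leaving out a library. For input reads 0 passed (735 at an unadjusted p under 0.05), against 52 with DESeq2, 95 with no filter and 7 by positions with a read, of which 1 was among the 10 genes. For AlkAniline-Seq over input 1 passed, against 151 with DESeq2, 31 with no filter, 0 without the highest position and 0 to 1 on leaving out a replicate. Within shMETTL1 27 passed, against 57 with library size alone and 1 to 82 on leaving out a replicate; within shscramble 82 passed, with 17 to 75. For reads per position 0 passed, against 713 with DESeq2 (4 in the 10 genes), 4 with no filter and 3 to 5644 on leaving out a library (0 to 4 in the 10 genes), both highest without shscramble replicate 3. For the fold over input 3019 passed (6 in the 10 genes), against 0 (0) with positions read in any library and 0 to 1384 (0) on leaving out a library. The methods' t-test picked 5051 (10), but at an unadjusted p and a fold threshold over 404591 positions, so its number is not of the same kind. Causes of these shifts were not tested. No test of reads per gene called any of the 10. TRIB3 input positions with a read, left-out libraries being added after seeing the data, gave 0.80 to 1.05.

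Signs of single genes turned as follows. In AlkAniline-Seq ATF5 was 0.54 without its highest position. In the input DESeq2 gave -0.19 for ATF4, -0.13 for DDIT3 and -0.26 for XBP1, leaving out the highest position gave -0.84 for ATF4 and -0.20 for DDIT3, and positions with a read gave -0.027 for ATF4, 0.15 for CEBPB and -0.0059 for DDIT4. For AlkAniline-Seq over input, library size alone gave -0.31 for DDIT3, -0.30 for DDIT4 and -0.43 for XBP1, leaving out the highest position -0.45 for XBP1, and DESeq2 0.029 for HERPUD1. Leaving out each library in turn, AlkAniline-Seq values ran from -0.55 (without shMETTL1 replicate 1) to 1.94 (without shscramble replicate 1) for ATF3, from -3.75 (without shMETTL1 replicate 3) to 0.14 (without shMETTL1 replicate 2) for ATF5, and from -0.35 (without shMETTL1 replicate 1) to 1.75 (without shscramble replicate 2) for CEBPB. Input values ran from -0.064 to 0.25 for ATF4, -0.21 to 0.63 for DDIT3 and -0.26 to 0.90 for XBP1, lowest without shscramble replicate 1 and highest without shscramble replicate 2, and from -1.48 (without shMETTL1 replicate 2) to 0.41 (without shscramble replicate 2) for CEBPB. AlkAniline-Seq over input ran from -0.55 to 0.12 for TRIB3, -0.47 to 0.76 for XBP1 and -0.75 to 2.69 for CHAC1 (each lowest without shscramble replicate 2), -0.32 to 0.40 for HERPUD1 (lowest without shscramble replicate 3, highest without shMETTL1 replicate 2) and -0.10 to 0.71 for DDIT4 (lowest without shscramble replicate 1). Of the 10 genes, 4 had an unadjusted p under 0.05 in AlkAniline-Seq and 2 without shMETTL1 replicate 1; in the input 2 had one, 4 without shscramble replicate 1 and 5 without shscramble replicate 2. ATF4, TRIB3, CHAC1 and HERPUD1 stayed above 0 in AlkAniline-Seq, and TRIB3, CHAC1, ATF3, ATF5 and HERPUD1 in the input, under every alternative that gave a value. The scaling of coverage by the median of ratios was chosen after seeing the data.

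Deviations of same-numbered replicates from their group means correlated at -0.03 to 0.05 across groups, so between groups the numbers name libraries only. Within a group the number ties an AlkAniline-Seq library to its input. With the replicate number as a block, 3 genes passed in AlkAniline-Seq, 2 in the input, 6 positions by reads and 0 by the fold over input (0 in the 10 genes). With each AlkAniline-Seq library paired to its own input, 69 genes passed within shMETTL1. None of the 10 genes was called. In depth, ATF5, CHAC1 and CEBPB each had under 15 AlkAniline-Seq reads in 2 libraries.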
